A study of Mus musculus with 9 samples.

Results

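The genes of hyaluronan synthesis, binding and breakdown were followed in sorted lung fibroblasts of aged mice, with and without bleomycin injury. The 10 members were chosen by name and not by their measured values, though earlier results of these data were known. Each of the 10 names matched 1 row among the 43346 genes of the deposited table. They are the synthases Has1, Has2 and Has3, the hyaluronidases Hyal1 and Hyal2, the receptors Cd44 and Hmmr, and the matrix proteins Vcan, Tnfaip6 and Hapln1. Of these, 9 passed the filter on low counts and were among the 16877 genes tested, and Hapln1 did not.

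All mice carried the Col1a1-GFP transgene, in which the collagen I promoter drives GFP, on an FVB background, and all were male. Their age is given as 18 months in the protocol and 72 weeks in the sample labels. Aged sham mice (4 libraries) received saline and aged bleo mice (5 libraries) a bleomycin instillation into the trachea, and lungs were taken on day 30. GFP+ cells were collected after removal of CD45+, CD31+ and EpCAM+ cells, so the GFP gate depends on a promoter whose own gene was higher after injury. The comparison asks which hyaluronan genes differed between injured and uninjured aged fibroblasts at this time.

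Hyaluronan is a long, unsulfated sugar polymer that is made at the plasma membrane from UDP-glucuronic acid and UDP-N-acetylglucosamine and extruded into the matrix. Outside the cell it is bound by receptors such as CD44 and by proteins with link modules, which organize it into a hydrated pericellular coat. Its breakdown releases fragments that are known to act on inflammatory signaling, and hyaluronan accumulates in injured and fibrotic lungs.

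The libraries held between 49921946 and 68260600 counted reads. Collagen genes were abundant in every library, with Col1a1 between 3649 and 4559 CPM (counts scaled to library size after TMM normalization) in aged sham and between 13560 and 25950 CPM in aged bleo. Of 10 fibroblast markers, 4 were called higher and 4 lower. Of the sort markers, Epcam was at 1.201 CPM or below and Pecam1 at 6.70 CPM or below, whereas Ptprc reached 183 CPM. Transcripts of the removed cell types were thus not absent. The summed level of the endothelial markers was between 164 and 202 CPM in aged sham, most of it from Tek, and between 26.8 and 71.4 CPM in aged bleo. Tek fell from a mean of 161 to 28.9 CPM (log2 fold change -2.48, FDR 0.00425). It was the only 1 of 6 tested endothelial markers called lower, and Kdr was called higher (log2 fold change 0.61, FDR 0.05). The summed level of the epithelial markers was between 18.5 and 121 CPM in aged sham and between 19.8 and 66.9 CPM in aged bleo. Sftpc reached 57.9 CPM in aged sham 3. Of 10 tested epithelial markers, 2 were called lower and none higher. These were Ager (log2 fold change -3.32, FDR 9.99e-04) and Hopx (log2 fold change -1.35, FDR 0.0064), both without overlap between the groups. Tek, Kdr, Sftpc, Ager and Hopx are named after their values were seen. Ptprc, which encodes CD45, lay between 42.3 and 169 CPM in aged sham and between 30.6 and 183 CPM in aged bleo, with aged sham 4 and aged bleo 4 highest in their groups. In bulk RNA, fewer cells of a type and less RNA per cell cannot be told apart. A gene was called different at an FDR (Benjamini-Hochberg adjusted p-value over all tested genes) under 0.10 and a fold change over 1.5, by edgeR's quasi-likelihood test.

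Across the members, Has1 and Tnfaip6 fell, Cd44 and Hmmr rose, and Has2, Has3, Hyal1, Hyal2 and Vcan did not pass both thresholds. The 2 members called higher were 22.2% of the 9 tested, where 12.3% of all tested genes were called higher. The 2 members called lower were also 22.2%, where 11.5% of all tested genes were called lower. In either direction, 23.8% of all tested genes were called. The median log2 fold change was 0.16 over the 9 members and 0.01 over all tested genes.

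**Figure D1:**
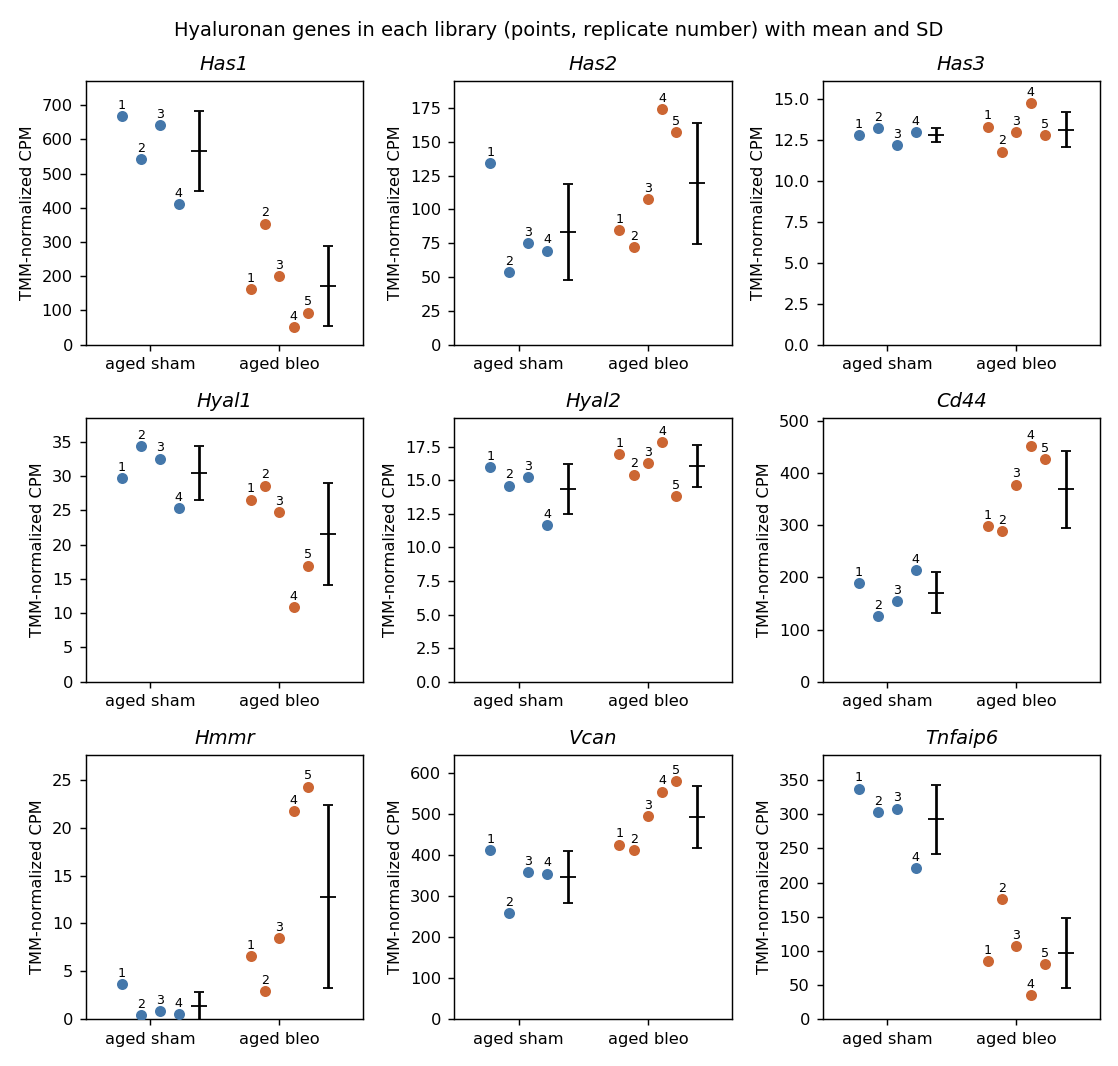
TMM-normalized CPM (y axis, linear, from 0) of the 9 tested members in each of the 4 aged sham and 5 aged bleo libraries. Points are libraries with their replicate number, and the bar beside them is the mean with its SD, cut off at 0 for Hmmr in aged sham. For Has1 and Tnfaip6 all 5 aged bleo points lie below the aged sham points, for Cd44 all lie above them, and the ranges of the other 6 overlap. Of all tested genes, 32.2% were without overlap in either direction, a share near that of the members.

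Has1 encodes 1 of the 3 membrane enzymes that polymerize hyaluronan. On the length-scaled FPKM scale it was the most abundant member in aged sham, at 113.7 ± 24.3 FPKM (SD, n = 4). Has1 (ENSMUSG00000003665, chromosome 17, 17843328 to 17855188, minus strand, GRCm38) was at 668, 542, 642 and 411 CPM in aged sham 1 to 4, and at 162, 354, 201, 51.4 and 93.4 CPM in aged bleo 1 to 5. The groups did not overlap, as the highest aged bleo library, aged bleo 2, was below the lowest aged sham library. Among all tested genes, 16.1% were without overlap in this direction. The mean fell from 566 ± 117 CPM (SD, n = 4) to 172.5 ± 117 CPM (SD, n = 5), a 3.28-fold lower level (log2 fold change -1.71, standard error 0.47, FDR 0.0209). The spread within aged bleo was wide, and aged bleo 4 and aged bleo 5 had the lowest levels.

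Has2, whose enzyme is required for heart development in the mouse embryo, did not pass the test. Has2 (ENSMUSG00000022367, chromosome 15, 56665627 to 56694539, minus strand) was at 134, 53.7, 74.8 and 69.5 CPM in aged sham 1 to 4, and at 84.7, 71.9, 107.7, 174 and 157 CPM in aged bleo 1 to 5. Aged sham 1 was above aged bleo 1, 2 and 3, so the groups overlapped. The means were 83.1 ± 35.3 CPM (SD, n = 4) and 119 ± 44.8 CPM (SD, n = 5), with a log2 fold change of 0.52 (standard error 0.33, FDR 0.249). Without aged sham 1, the log2 fold change was 0.85 and Has2 was called higher (FDR 0.0678, with FDR from 0.0678 to 0.47 over the 21 alternatives). The antisense transcript Has2os overlaps the start of Has2, and the library kit does not mark strand. The Has2os level averaged 10.4 CPM in the 4 aged sham libraries and 10.6 CPM in the 5 aged bleo libraries, with SDs of 3.32 and 2.496, and it did not pass the test (log2 fold change 0.04, standard error 0.24, FDR 0.925).

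Has3 (ENSMUSG00000031910, chromosome 8, 106870242 to 106884566) was the least abundant and the steadiest of the synthases. The aged sham libraries lay between 12.2 and 13.2 CPM, and those of aged bleo between 11.8 and 14.8 CPM. The log2 fold change was 0.04 (standard error 0.08, FDR 0.763), and it was slightly negative without aged bleo 4, at -0.02. The end of Has3 overlaps Chtf8 on the opposite strand, which holds more reads than Has3, so its count is less certain than that of Has1.

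The mix of synthase transcripts therefore differed between libraries. Has1 made up 90.5% to 94.6% of the summed FPKM of the 3 synthases in aged sham. In aged bleo 1 to 5 its share was 77.9%, 90.0%, 77.8%, 36.2% and 53.3%. The share of Has2 was 4.63% to 8.98% in aged sham, and 20.04%, 9.02%, 20.5%, 60.4% and 44.3% in aged bleo 1 to 5. In aged bleo 4, Has2 exceeded Has1, with a Has1 to Has2 ratio of 0.598, and in aged bleo 5 the ratio was 1.204, whereas the lowest ratio in aged sham was 10.1. Aged bleo 2 lay close to aged sham in this mix, with a ratio of 9.98. The summed synthase level was between 88.2 and 148 FPKM in aged sham and between 30.5 and 78.9 FPKM in aged bleo. These shares follow from the levels given above and were not tested separately.

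**Figure D2:**
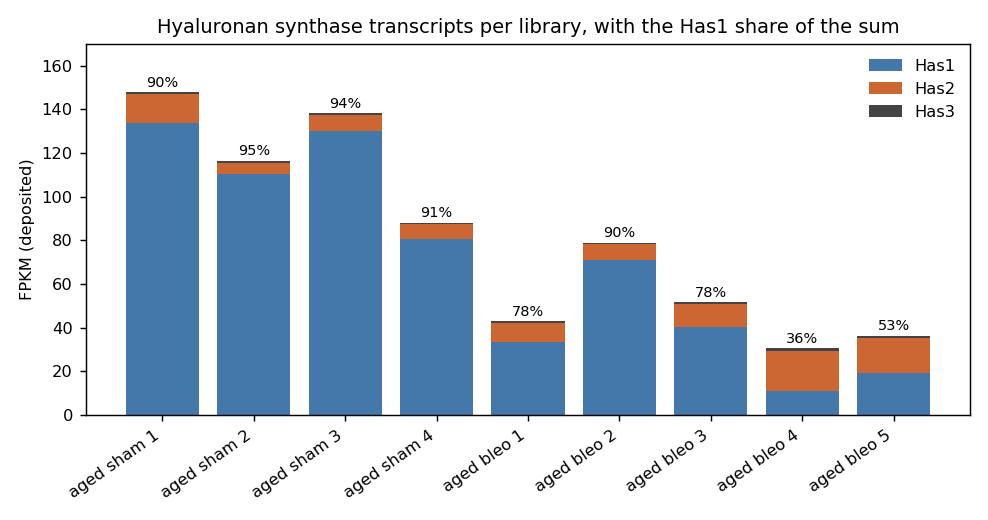
Deposited FPKM (y axis, linear, from 0) of Has1, Has2 and Has3, stacked for each library, with the Has1 share of the sum printed above each bar. The sum is between 88.2 and 148 FPKM in the 4 aged sham libraries and between 30.5 and 78.9 FPKM in the 5 aged bleo libraries, and Has2 exceeds Has1 in aged bleo 4.

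Tnfaip6 encodes TSG-6, a secreted link-module protein that transfers the heavy chains of inter-alpha-inhibitor onto hyaluronan and thereby cross-links it. It was the second most abundant member per length in aged sham, at 71.8 ± 13.0 FPKM (SD, n = 4). Tnfaip6 (ENSMUSG00000053475, chromosome 2, 52038009 to 52056686, plus strand) was at 338, 303, 308 and 221 CPM in aged sham 1 to 4, and at 84.3, 175.6, 107.3, 34.9 and 80.5 CPM in aged bleo 1 to 5. No aged bleo library reached the lowest aged sham library. The mean fell from 292.5 ± 50.03 CPM (SD, n = 4) to 96.5 ± 51.4 CPM (SD, n = 5), a 3.03-fold lower level (log2 fold change -1.60, standard error 0.37, FDR 0.0109). The 5 aged bleo libraries had the same order for Tnfaip6 as for Has1, from aged bleo 2 as the highest through 3, 1 and 5 to aged bleo 4, and the 4 aged sham libraries also had the same order for both genes.

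Levels of other transcripts moved with Has1 and Tnfaip6. All 10 genes of an immediate early list, which respond quickly to stimuli and to tissue dissociation, were called lower, among them Fos (log2 fold change -0.87, FDR 0.0146) and Fosb (log2 fold change -1.20, FDR 0.0113). Their summed level was between 18600 and 24510 CPM in aged sham and between 6724 and 14570 CPM in aged bleo, and it was lowest in aged bleo 4 and 5. The fibroblast markers Dcn (log2 fold change -1.54, FDR 0.00667), Pi16 (-1.51, FDR 0.0136), Dpt (-1.45, FDR 0.013) and Tcf21 (-1.10, FDR 0.0121), named after their values were seen, were also called lower without overlap, with their lowest levels in aged bleo 4 and 5. These are the 4 called lower in a list of 10 fibroblast markers, of which 4 others were called higher. Those were Col1a1 (log2 fold change 2.328), Col1a2 (1.592), Col3a1 (1.595) and Npnt (0.87), and Pdgfra and Lum were not called. The part of immediate early or fibroblast markers in the difference of Has1 and Tnfaip6 was not tested. Mesothelial cells, which line the lung surface, can express Has1 too. Of the 9 tested mesothelial markers, 0 were called by edgeR and 0 had an unadjusted p-value under 0.05, the lowest being 0.0546 for Krt18, named after its values were seen. Their summed level, with the untested Calb2 that was at 0 in aged sham 3, lay between 31.2 and 89.5 CPM in aged sham and between 39.2 and 135.5 CPM in aged bleo. The defining markers had log2 fold changes of 0.77 (Msln, standard error 0.36, FDR 0.121) and 0.57 (Upk3b, standard error 0.41, FDR 0.303), so neither passed the test. The median log2 fold change of the 9 tested mesothelial markers was 0.568. The part of mesothelial cells in the Has1 difference was not tested.

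The promoters of the members that fell together and of the member with the largest rise are shown because these genes moved most. The 250 bases before the RefSeq start sites (GRCm38.p6) are printed 5′ to 3′ on the strand of the gene. Capitals mark every match, on either strand, to 4 motifs: CCAAT (the CCAAT box), TGANTCA (an AP-1 site), TGACGTCA (a cAMP response element) and TTTGAA (the cell cycle homology region, CHR).
Has1, chr17:17855189-17855438, minus strand: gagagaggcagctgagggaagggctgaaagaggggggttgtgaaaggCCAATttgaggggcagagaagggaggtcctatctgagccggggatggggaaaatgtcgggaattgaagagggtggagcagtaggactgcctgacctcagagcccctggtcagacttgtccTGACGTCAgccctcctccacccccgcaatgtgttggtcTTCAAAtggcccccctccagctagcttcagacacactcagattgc
Tnfaip6, chr2:52037863-52038112, plus strand: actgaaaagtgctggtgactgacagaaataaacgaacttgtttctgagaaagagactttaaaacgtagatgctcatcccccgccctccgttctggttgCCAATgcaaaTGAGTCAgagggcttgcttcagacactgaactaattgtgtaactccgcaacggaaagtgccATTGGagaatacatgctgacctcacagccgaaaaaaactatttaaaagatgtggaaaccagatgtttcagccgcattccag
Hmmr, chr11:40733438-40733687, minus strand: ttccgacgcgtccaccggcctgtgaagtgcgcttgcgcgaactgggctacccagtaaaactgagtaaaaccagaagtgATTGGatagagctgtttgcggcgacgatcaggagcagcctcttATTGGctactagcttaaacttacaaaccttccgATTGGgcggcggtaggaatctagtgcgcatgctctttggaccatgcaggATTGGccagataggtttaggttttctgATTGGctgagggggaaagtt

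Promoter sequences were found for 8 of the 10 members. The Has1 promoter held a full cAMP response element 83 bases before the start site, a motif found in 1.79% of the 32851 promoters of the same 300-base window (250 bases before to 50 after the start site), a CHR match 45 bases before the start, and no match to the AP-1 motif. The Tnfaip6 promoter held an AP-1 match 142 bases before the start, a motif found in 7.81% of the promoters, and no full cAMP response element. Both had CCAAT matches, as 37.4% of the promoters did. The Hmmr promoter held 5 CCAAT matches between 172 and 20 bases before the start, a number that 0.271% of the promoters reached or exceeded, and a CHR match 9 bases after the start, which 17.9% held anywhere in the window. The TATA box (TATAAA), the GC box (GGGCGG), the NFAT core (GGAAA) and a STAT site (TTCNNNGAA) were also searched and are not in capitals. Tnfaip6 held a STAT site 209 bases before the start, a motif found in 8.3% of the promoters. Has1, Tnfaip6 and Hmmr each held the NFAT core (61.3% of the promoters), Tnfaip6 and Hmmr the GC box (35.7%), and none the TATA box. All these matches describe the sequences and do not show that a factor bound them.

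Cd44 encodes the principal cell surface receptor for hyaluronan. Cd44 (ENSMUSG00000005087, chromosome 2, 102811141 to 102901665) was at 189, 125, 154 and 214 CPM in aged sham 1 to 4, and at 298, 289, 378, 451.5 and 427 CPM in aged bleo 1 to 5. Every aged bleo library was above every aged sham library, which held for 16.1% of all tested genes in this direction. The mean rose from 171 ± 38.9 CPM (SD, n = 4) to 369 ± 73.6 CPM (SD, n = 5), 2.16-fold (log2 fold change 1.11, standard error 0.19, FDR 0.00319). Leukocytes also express Cd44. Of 11 macrophage markers, 6 were called higher and none lower, among them Lyz2 (log2 fold change 2.42, FDR 0.00142) and Adgre1 (log2 fold change 1.61, FDR 0.0418). The summed level of the 11 was between 202 and 397 CPM in aged sham and between 543 and 1711 CPM in aged bleo, highest in aged bleo 4. Of 6 pan-leukocyte markers, 1 was called higher, and their sum lay between 101 and 371 CPM in aged sham and between 100 and 566 CPM in aged bleo, with Ptprc at a log2 fold change of -0.42 (FDR 0.643) and Cd52 at 0.50 (FDR 0.579). Of 6 tested neutrophil markers, none was called. The sum of the neutrophil list lay between 152 and 937 CPM in aged sham and between 83.3 and 841 CPM in aged bleo. Aged sham 4 and aged bleo 4 were highest in their groups. Of 6 tested T and NK cell markers, none was called, and all 4 tested B cell markers were called lower. The B cell sum was 3.35 to 10.9 CPM in aged sham and 0.949 to 2.44 CPM in aged bleo. No macrophage, pan-leukocyte or neutrophil marker was at 0 in any library. The part of these lists in the Cd44 difference was not tested. Cd44 remained higher without aged bleo 4 (log2 fold change 1.02, FDR 0.00504, with FDR from 6.01e-07 to 0.0144 over the 21 alternatives). The macrophage sums of the aged bleo libraries kept in that fit, 543 to 929 CPM, were also above those of all aged sham libraries.

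Hmmr encodes RHAMM, a hyaluronan-binding protein that also associates with the mitotic spindle. Hmmr (ENSMUSG00000020330, chromosome 11, 40701395 to 40733422) was at 3.60, 0.428, 0.779 and 0.524 CPM in aged sham 1 to 4, and at 6.60, 2.90, 8.42, 21.8 and 24.3 CPM in aged bleo 1 to 5. Aged sham 1 stood far above the other aged sham libraries and above aged bleo 2, so the groups overlapped. The mean rose from 1.33 ± 1.52 CPM (SD, n = 4) to 12.8 ± 9.60 CPM (SD, n = 5), and the fitted difference was 9.51-fold (log2 fold change 3.25, standard error 0.85, FDR 0.0176). Without aged sham 1, the log2 fold change was 4.47 (FDR 0.00641, with FDR from 5.80e-04 to 0.0525 over the 21 alternatives). All 15 genes of a cell cycle list, among them Mki67 and Top2a, were called higher as well. Their summed level was 95.0 CPM in aged sham 1 and 21.1 to 22.8 CPM in the other aged sham libraries, and 134, 67.5, 192, 505 and 449.7 CPM in aged bleo 1 to 5. The part of cycling cells in the Hmmr difference was not tested.

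Vcan encodes versican, a large chondroitin sulfate proteoglycan whose link modules bind hyaluronan. Vcan (ENSMUSG00000021614, chromosome 13, 89655312 to 89742509) was at 412, 258, 359 and 354.5 CPM in aged sham 1 to 4, and at 425, 412, 494, 555 and 580 CPM in aged bleo 1 to 5. The level of aged bleo 2 was just below that of aged sham 1, and the other 4 exceeded the whole aged sham range. The means were 346 ± 64.1 CPM (SD, n = 4) and 493 ± 74.9 CPM (SD, n = 5). The difference was under the FDR threshold but remained below a fold change of 1.5 (log2 fold change 0.51, standard error 0.16, FDR 0.0327). Without aged sham 1 it passed both thresholds (log2 fold change 0.61, FDR 0.0284, with FDR from 0.00836 to 0.0753 over the 21 alternatives).

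Hapln1, which encodes the link protein that locks proteoglycans onto hyaluronan in cartilage, was at the limit of detection. It had 0 to 5 counts in each library and 24 counts in all 9 libraries together. The upper limit for a library without counts is 3 counts, or between 0.0439 and 0.0601 CPM here, so a difference was not detectable and no fold change is given.

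Hyal1 and Hyal2 encode hyaluronidases. Hyal2 is anchored at the cell surface and cuts long hyaluronan, and Hyal1 acts on the resulting pieces in lysosomes. Hyal1 (ENSMUSG00000010051, chromosome 9, 107576927 to 107581710) was at 29.7, 34.3, 32.5 and 25.3 CPM in aged sham 1 to 4, and at 26.6, 28.6, 24.7, 10.9 and 16.9 CPM in aged bleo 1 to 5. Aged bleo 4 and 5 were lowest, and the other 3 aged bleo libraries lay near or within the aged sham range. The log2 fold change of -0.50 (standard error 0.26, FDR 0.153) did not pass the test. Without aged bleo 2, Hyal1 was called lower (log2 fold change -0.63, FDR 0.0844), and over the 21 alternatives its FDR ranged from 0.00332 to 0.284.

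Hyal2 (ENSMUSG00000010047, chromosome 9, 107567945 to 107572779) lay between 11.7 and 16.0 CPM in aged sham and between 13.8 and 17.9 CPM in the injured group, and it did not pass the test (log2 fold change 0.16, standard error 0.11, FDR 0.289). The hyaluronidase genes lie side by side, and both overlap other annotated genes. Hyal1 overlaps Naa80 and Hyal3 on its own strand and Hyal2 overlaps Gm9917 on the opposite strand, so reads of these genes may not be fully separated. The ratio of Hyal1 to Hyal2 FPKM was 1.62 to 2.05 in aged sham, and 1.36, 1.61, 1.33, 0.532 and 1.07 in aged bleo 1 to 5.

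On the FPKM scale, the order of the members in aged sham was Has1, Tnfaip6, Cd44 (10.5 ± 2.24 FPKM, SD, n = 4), Vcan (10.0 ± 1.80 FPKM), Has2 (8.22 ± 3.48 FPKM), Hyal1 (3.39 ± 0.490 FPKM), Hyal2 (1.83 ± 0.259 FPKM), Has3 (0.843 ± 0.0301 FPKM), Hmmr (0.103 ± 0.117 FPKM) and Hapln1. The SDs of Cd44, Vcan and Has2 overlapped in this order, and the other neighbors lay further apart than their SDs, except Hapln1, which had too few counts. In aged bleo, the upper ranks drew together, with Has1 at 35.03 ± 23.2 FPKM (SD, n = 5), Tnfaip6 at 24.0 ± 12.3 FPKM, Cd44 at 23.5 ± 5.17 FPKM, Vcan at 14.7 ± 2.503 FPKM and Has2 at 12.2 ± 4.87 FPKM. The SDs of Has1, Tnfaip6 and Cd44 overlapped, as did those of Vcan and Has2, while Cd44 and Vcan lay further apart than their SDs. The SDs of Hyal1 and Hyal2 overlapped as well, as did those of Hmmr, at 1.03 ± 0.785 FPKM, and Has3, at 0.887 ± 0.0974 FPKM.

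Beyond the members, 64 further genes of hyaluronan metabolism were listed by function. Of these, 54 were tested, 8 were called higher, where 12.3% of all tested genes were, 14 were called lower, where 11.5% of all tested genes were, and 32 were not called. The same shares are the background for the counts of each group that follows.

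Some of the enzymes that make the sugar precursors of hyaluronan fell. Of 14 tested genes of precursor synthesis, 5 were called lower and none higher, with a median log2 fold change of -0.16, and their summed level was 2811 to 3244 CPM in aged sham and 1065 to 1808 CPM in aged bleo. Ugdh, the dehydrogenase that makes UDP-glucuronic acid, was at 767, 619, 759 and 749.7 CPM in aged sham 1 to 4 and at 193, 302, 210.2, 157 and 184 CPM in aged bleo 1 to 5 (log2 fold change -1.79, standard error 0.18, FDR 1.92e-04). Gfpt2, an isoform of the enzyme at the entry of the hexosamine pathway, was at 1127, 984, 1075 and 1034 CPM in aged sham 1 to 4 and at 269.5, 542, 345, 109.9 and 142 CPM in aged bleo 1 to 5 (log2 fold change -1.91, standard error 0.41, FDR 0.00816). For both genes, the highest aged bleo library was below the lowest of aged sham.

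Uap1, which makes UDP-N-acetylglucosamine, fell from 425 ± 51.9 CPM (SD, n = 4) to 159 ± 61.3 CPM (SD, n = 5), with a log2 fold change of -1.42 (standard error 0.25, FDR 0.00355). Ugp2, which makes the UDP-glucose that Ugdh uses, had a log2 fold change of -0.81 (standard error 0.13, FDR 0.0025). The fifth gene called lower was Gnpnat1, an acetyltransferase of the hexosamine pathway, named here after its values were seen (log2 fold change -0.68, FDR 0.00272), and it was not called without aged sham 4. In contrast, Gfpt1, the other isoform of Gfpt2, was not called (log2 fold change 0.16, standard error 0.10, FDR 0.253), nor were Pgm3, Nagk and Uap1l1. The gene listed as Pgm1 (ENSMUSG00000029171) was at 16.1 to 18.6 CPM in aged sham and 21.4 to 27.5 CPM in aged bleo, without overlap. It was higher by less than 1.5-fold (log2 fold change 0.48, standard error 0.09, FDR 0.00501). The gene listed as Pgm2 (ENSMUSG00000025791) was not called (log2 fold change -0.19, standard error 0.09, FDR 0.136). Both are named here after their values were seen. The enzymes of precursor synthesis also serve glycosylation and the synthesis of other glycosaminoglycans.

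**Figure D3:**
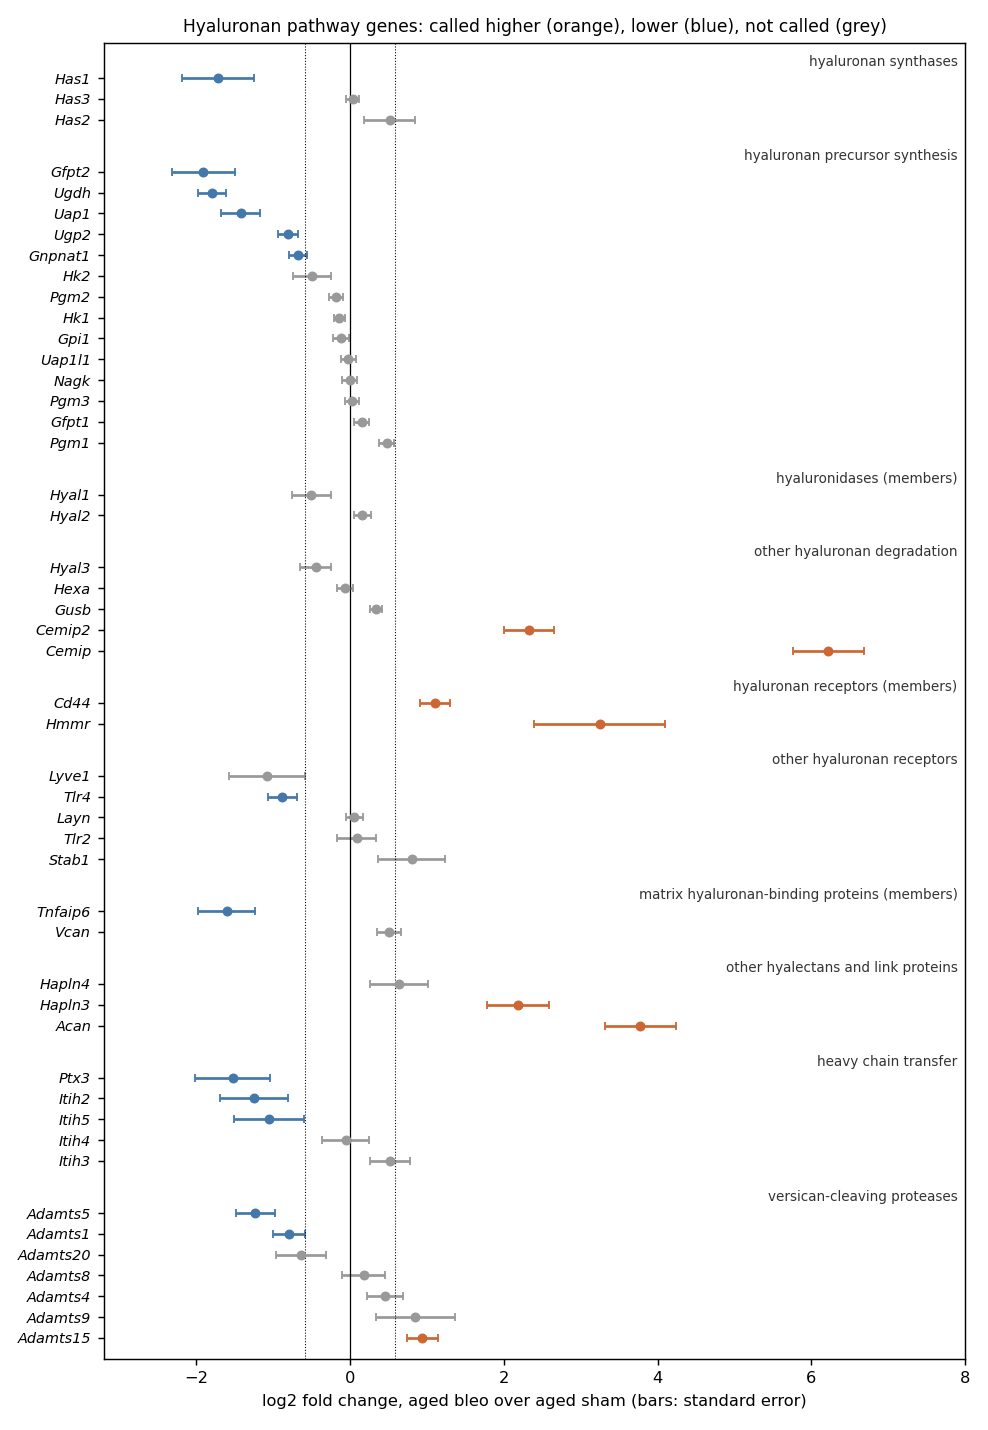
Log2 fold change of aged bleo over aged sham (x axis, points) with its standard error (bars) for the tested members and further genes of hyaluronan metabolism, grouped by function on the y axis. The partners of Cd44 and the synthase regulators are not drawn. Dotted lines mark the fold change threshold of 1.5, and colors show genes called higher (orange), called lower (blue) and not called (grey). Has1, Tnfaip6, Gfpt2 and Ugdh lie on the lower side, and Cemip at 6.22 and Acan at 3.78 lie farthest on the higher side.

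On the side of breakdown, the largest differences were outside the classical hyaluronidases. Of 6 tested further genes, 2 were called higher. Cemip, which encodes a hyaluronan-depolymerizing protein of fibroblasts, was at 1.32, 1.13, 0.428 and 1.71 CPM in aged sham 1 to 4 and at 73.8, 49.8, 86.1, 75.8 and 143.9 CPM in aged bleo 1 to 5 (log2 fold change 6.22, standard error 0.46, FDR 3.88e-05). Cemip2, listed under its older symbol Tmem2 and encoding a related transmembrane protein, was at 27.8, 11.6, 11.1 and 11.8 CPM in aged sham 1 to 4 and at 64.7, 55.1, 82.7, 91.9 and 97.1 CPM in aged bleo 1 to 5 (log2 fold change 2.33, standard error 0.32, FDR 0.00101). Neither gene showed any overlap between the groups. Hyal3, a further hyaluronidase gene, and Gusb, a lysosomal glucuronidase, were not called (log2 fold changes -0.45 and 0.34, FDR 0.116 and 0.0075, the latter under a fold change of 1.5).

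The genes that act with Tnfaip6 in heavy chain transfer were called lower or not called. Of 5 tested, 3 were called lower and none higher. Ptx3, a pentraxin that binds TSG-6 and helps to stabilize hyaluronan matrices, was at 276, 271, 285.5 and 248.8 CPM in aged sham 1 to 4 and at 69.1, 162, 143, 18.2 and 76.9 CPM in aged bleo 1 to 5 (log2 fold change -1.53, standard error 0.49, FDR 0.0376). Itih2, a heavy chain gene, was lower (log2 fold change -1.25, standard error 0.45, FDR 0.0548) and was not called without aged sham 1 or without aged bleo 5. Itih5 was at the edge of the FDR threshold (log2 fold change -1.05, FDR 0.0993) and was called in only 2 of the 9 fits that left out a library, those without aged bleo 2 and without aged bleo 3. Ambp and Itih1, which are mainly expressed in liver, were too low to be tested.

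Among further proteoglycans and link proteins, 2 of 3 tested genes were called higher, both at low levels. Acan, encoding aggrecan, rose from 0.190 ± 0.0839 CPM (SD, n = 4) to 2.61 ± 1.32 CPM (SD, n = 5) (log2 fold change 3.78, standard error 0.46, FDR 5.50e-04), and Hapln3 from 0.281 ± 0.159 to 1.29 ± 0.477 CPM (log2 fold change 2.18, standard error 0.41, FDR 0.00429). Of 7 tested proteases that can cleave versican, Adamts5 and Adamts1 were called lower (log2 fold changes -1.23 and -0.79, FDR 0.00646 and 0.0183) and Adamts15 higher (log2 fold change 0.94, FDR 0.00771). Of 5 tested further hyaluronan receptors, Tlr4 was called lower (log2 fold change -0.88, standard error 0.19, FDR 0.00723) and none higher. Lyve1 and Stab1, receptors of lymphatic endothelium and macrophages, had log2 fold changes of -1.08 (FDR 0.119) and 0.80 (FDR 0.178).

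Around Cd44, 3 of 8 tested ligands, linkers and sheddases were called higher and none lower. Spp1, which encodes the CD44 ligand osteopontin, had the largest difference (log2 fold change 7.93, standard error 0.55, FDR 2.84e-05), and macrophages, of whose 11 markers 6 were higher, also express it. It was followed by the sheddases Mmp14 (log2 fold change 1.31, standard error 0.14, FDR 2.13e-04) and Adam10 (log2 fold change 0.74, standard error 0.12, FDR 0.0023). The cytoskeletal linkers Ezr, Rdx and Msn were not called. Of 6 tested regulators of synthase activity, Sirt1 and Prkaa2 were called lower (log2 fold changes -0.74 and -0.81, FDR 6.30e-04 and 0.0428), and Prkaa2 was not called without aged sham 3.

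The aged bleo libraries differed in how far they lay from aged sham. In aged bleo 4 and aged bleo 2, Has1 was -3.46 and -0.68 from the mean of aged sham on the log2 CPM scale, and Tnfaip6 was -3.07 and -0.74. For Cd44, these values were 1.40 and 0.76. Aged bleo 4 and 5 had the lowest Has1, Tnfaip6 and Hyal1 and the highest Has2, Cd44, Vcan and Hmmr among the 5 aged bleo libraries. Aged bleo 4 also had the highest macrophage and pan-leukocyte sums of all 9 libraries, 1711 and 566 CPM. In aged bleo 5 they were 929 and 144 CPM. The macrophage sum was 543, 745 and 635 CPM in aged bleo 1 to 3 and at most 397 CPM in aged sham. The pan-leukocyte sum was 100, 114 and 156 CPM in aged bleo 1 to 3 and 101 to 371 CPM in aged sham. The part of leukocytes in these levels was not tested.

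**Figure D4:**
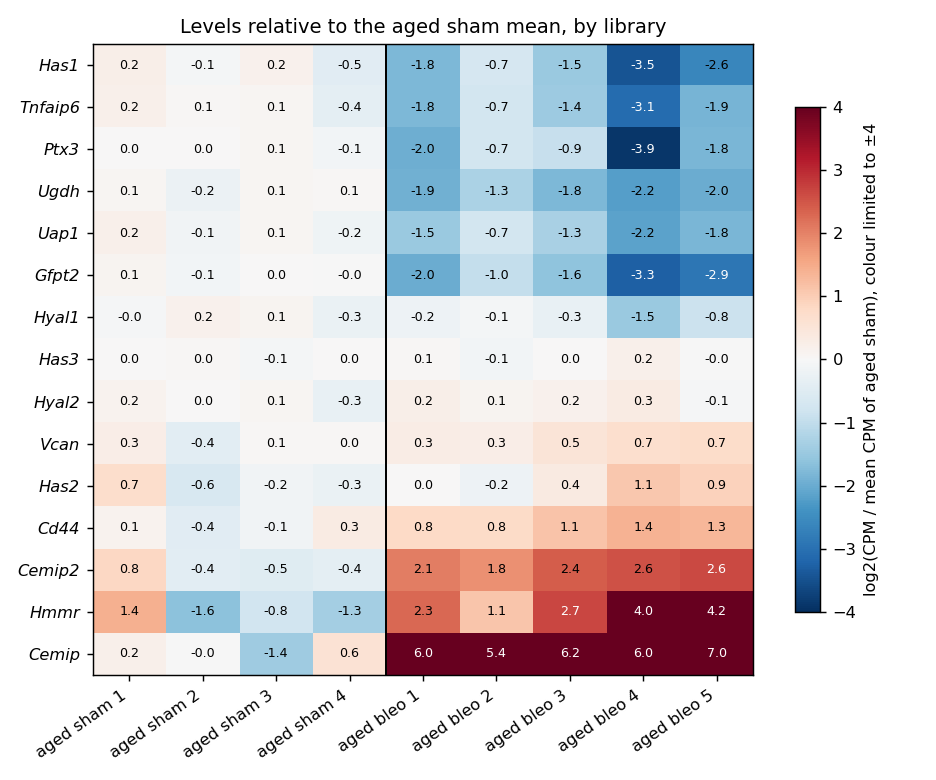
Log2 ratio of CPM in each library (columns) to the mean CPM of aged sham, for the 9 tested members and 6 further genes (rows), with the value printed in each cell and color limited to 4 in either direction. Aged bleo 4 and 5 show the lowest Has1, at -3.46 and -2.60, and aged bleo 2 the value nearest to aged sham, at -0.68.

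As a description of likeness, the 2 tested genes whose deviations from the group means of log2 CPM correlated most with each member over the 9 libraries were listed. Has1 was closest to 9530052E02Rik and Synm (Pearson's r = 0.99 for both) and Tnfaip6 to Gm15401 and Zfp612 (r = 0.99 for both). Hmmr was closest to Dlgap5 and Bub1 (r = 0.99 for both), which act in mitosis, and Has2 to Dlgap5 and Slfn9 (r = 0.99 for both). Cd44 was closest to 4930599N23Rik and Bst1 (r = 0.98 and 0.97), and Vcan to Setdb2 (r = 0.99). The number of tested genes with r above 0.9 was 969 for Has1, 910 for Hyal1, 494 for Tnfaip6 and 217 each for Has2 and Hmmr. It was 132 for Has3, 47 for Vcan, 37 for Cd44 and 9 for Hyal2. All genes come from the same 9 libraries.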

How the data were processed

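RNA-Seq libraries from polyadenylated RNA of 4 aged sham and 5 aged bleo mice were analyzed. The authors deposited read counts per gene, whole numbers without normalization, and FPKM. Back-calculated here from counts and gene length, the FPKM imply library totals 2.27 to 2.42 times as large as the summed counts. The submitters' processing notes name STAR 2.5.2b, featureCounts and mm10. Of the gene identifiers shared with GENCODE M21 (GRCm38), 78.9% had identical positions. Strand and overlap settings of the counting are not given in the sources used here.

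Libraries were grouped by their labels. Genes whose counts averaged 25 or more were tested with edgeR 4.0.16 (TMM, glmQLFit, glmQLFTest, R 4.3.3), without covariates, with calls at FDR under 0.10 and over 1.5-fold. The test was tried on simulated data. Standard errors come from the fold change and its F statistic. Each library is from a separate mouse, and no libraries of a group were duplicates. Limits from counts cover counting error only.

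Alternatives used DESeq2 1.42.0, limma 3.58.1 (limma-trend on log2 CPM with a prior count of 2, and on FPKM plus 0.1 or 1), other scaling, filters and thresholds, each library left out, and replicate blocks. Named were the members, of each pathway list up to 4 called genes with the largest changes, markers beside a result, and 2 similar genes per member. The result of 1 listed gene is not reported here. Members and lists were chosen with earlier results of these data known.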

Additional observations from a re-analysis of the deposited data

Results flagged for a closer look

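The level of Hmmr in aged sham 1, 3.60 CPM, was far from the other 3 aged sham libraries, which were at 0.428 to 0.779 CPM. The gap to the nearest library was 0.889 of the range of the group. It was 1 of 20 sets of values examined (10 members in 2 groups), and chance gives about 1 in 20. Aged sham 1 also had the highest cell cycle sum of the aged sham libraries, 95.0 CPM, and the highest Has2, 134 CPM. The part of cycling cells in these values was not tested.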

How the results depend on the processing

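Has1, Tnfaip6, Cd44 and Hmmr kept their direction and remained called under all 21 alternatives, and Has3, which was not called, ranged from -0.019 (without aged bleo 4) to 0.072 with 1 library left out and was at -0.007 without both aged sham 1 and aged bleo 4, the latter chosen after seeing the data. The edgeR test called 4022 genes (2082 higher, 1940 lower), and limma-trend on log2(FPKM + 1) called 1785 (960 higher, 825 lower). An FDR under 0.05 with a fold change over 2 gave 2158 (1224 higher, 934 lower) and reduced the further pathway genes called from 22 to 11, of which 5 were lower. Aged bleo 4 alone against aged sham, the only aged bleo library whose name ends in the same number, gave 6177 genes (3118 lower), and here the lone library is assumed to vary like aged sham. In that comparison the log2 fold changes of Has1 and Tnfaip6 were -3.44 and -3.05. On log2(FPKM + 1), that of Hmmr was 0.80. What the number in the names stands for is not stated. The cause of these shifts was not tested, except that stricter thresholds call fewer genes. With each library left out in turn, 3525 to 4597 genes were called, and 4 to 6 members (2 to 4 higher, 2 to 3 lower). The 4 members called higher without aged sham 1 included Has2 and Vcan.

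Replicate numbers do not pair mice in the labels. Deviations of same-numbered libraries correlated at 0.09, 0.06, -0.13 and 0.33, and not every library correlated best with its own number. The fit with a replicate block called 3536 genes and 4 members. Depth limits Hapln1, which had at most 5 counts in a library.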
